A study of Homo sapiens with 6 samples.

Results

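Integrins and laminins were examined in RNA-seq of HCT116, a human colorectal carcinoma cell line. All genes of the deposited count table whose symbol names an integrin alpha subunit with a number or the letter V, an integrin beta subunit, or a laminin alpha, beta or gamma chain were taken. This gave 33 of 20020 genes, made up of 13 alpha subunits, 8 beta subunits and 12 laminin chains, of which 27 (10, 6 and 11) had enough counts to be tested. Alpha subunits named by other letters, such as those of leukocytes, fall outside this rule and were read only as a comparison. CAD-KO+IR cells carry a knockout of CAD and sgVec+IR cells the control vector, with 3 libraries in each group. Both groups were irradiated, with 8 Gy and a harvest after 24 h as given in the study's account of this experiment, so the response to irradiation itself was not compared here. CAD is caspase-activated DNase, encoded by DFFB, and not the product of the gene with the symbol CAD. The labels do not say whether the replicates were separate cultures, so p-values may measure technical spread only. A single knockout line, made with lentiviral CRISPR, stands for the loss of CAD.

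Integrins are cell surface receptors built of 1 alpha and 1 beta subunit, which link the matrix outside the cell to adaptor proteins and actin within. The alpha subunit largely sets the ligand, and ITGB1 pairs with most alpha subunits. Laminins are secreted trimers of an alpha, a beta and a gamma chain and form the sheet of the basement membrane on which epithelial cells sit. In gut epithelium, the pair of ITGA6 and ITGB4 anchors cells to laminin in hemidesmosomes, while ITGA3 with ITGB1 binds trimers that hold LAMA3 or LAMA5.

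The genes of this family differ widely in base composition, and this bears on the counts described further on. The GC content of the longest coding transcript ran from 37.8% in ITGB8 to 66.4% in LAMA5. For some alpha subunits the difference can be read in the stretch that encodes the conserved motif just inside the membrane. In this motif a glycine, a pair of phenylalanines, a lysine and an arginine follow each other. Of 13 alpha subunits, 9 encoded this exact motif. In the coding sequences below, 45 bases long and read 5′ to 3′ on the coding strand, the 15 motif bases are in capitals, and the stretches were chosen to show the same motif in GC-rich and in AT-rich genes.
ITGA3: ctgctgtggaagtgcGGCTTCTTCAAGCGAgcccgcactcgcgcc
ITGA2B: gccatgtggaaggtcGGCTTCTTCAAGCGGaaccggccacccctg
ITGA7: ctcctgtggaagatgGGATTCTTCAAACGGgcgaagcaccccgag
ITGA6: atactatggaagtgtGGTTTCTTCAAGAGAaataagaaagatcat
ITGA2: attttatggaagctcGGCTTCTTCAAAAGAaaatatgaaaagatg
The stretches of ITGA3 (GRCh38 chr17:50087858-50088257, forward strand, exons 24 and 25), ITGA2B (chr17:44372391-44374365, reverse strand, exons 29 and 30) and ITGA7 (chr12:55685256-55687982, reverse strand, exons 24 and 25) held 66.7%, 64.4% and 57.8% GC. Those of ITGA6 (chr2:172498089-172501804, forward strand, exons 24 and 25) and ITGA2 (chr5:53090051-53090551, forward strand, exons 29 and 30) each held 31.1%. Each span includes the intron between the exons named. The stretches of ITGA5 and ITGAV, not printed here, each held 48.9% GC, although their transcripts held 58.66% and 38.25%.

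The libraries held 14032994 to 19574144 counts, and each CAD-KO+IR library was deeper than each sgVec+IR library. A pair of libraries stood apart from their own groups, namely sgVec+IR replicate 3, with 7561 genes at 0 counts against 4577 to 5232 in the others, and CAD-KO+IR replicate 2. DFFB, the targeted gene, was at 10.8 ± 1.32 CPM (counts scaled to the library total; SD, n = 3) in CAD-KO+IR and 21.9 ± 0.995 CPM (SD, n = 3) in sgVec+IR, lower in every knockout library. All 6 epithelial markers examined were expressed, with summed levels of 2840 to 4040 CPM in CAD-KO+IR and 2150 to 4170 CPM in sgVec+IR. CDH1, the adhesion protein E-cadherin, was at 66.7 ± 2.95 and 97.1 ± 2.90 CPM (SD, n = 3 each), lower in every knockout library, while KRT18, an epithelial keratin, was at 476 ± 26.0 and 383 ± 94.8 CPM, higher in every knockout library. The other 4 epithelial markers overlapped between groups, and of all 6, 2 were higher and 4 lower. Over all genes tested, 5.01% were lower and 5.23% higher in every knockout library than in every control library. Of 5 colon epithelial markers 2 passed the filter on low counts, and CDX1 was at 0 in every library. The 7 fibroblast markers summed to 25.9 to 39.8 CPM in CAD-KO+IR and 12.3 to 48.9 CPM in sgVec+IR, of which COL1A1, a collagen I chain, made up most, and DCN and LUM were at 0.

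Levels between genes were compared as CPM per kb of transcript, averaged over the 6 libraries. ITGB1, the common beta subunit, was the highest at 149.5 CPM per kb (range 124 to 198). The laminin receptor subunit ITGA3 followed at 93.5 CPM per kb (48.1 to 116.5) and ITGB4, the hemidesmosome beta subunit, at 79.0 CPM per kb (33.4 to 99.98). The range of ITGB1 lay above those of ITGA3 and ITGB4, whereas ITGA3 and ITGB4 overlapped. Next in order were LAMC1 (36.8), the gamma chain of most laminins, ITGA6 (35.7), LAMA5 (31.3), LAMB3 (24.1) and ITGB5 (23.1), with neighbours that overlapped in range.
LAMB2, ITGAV, ITGA2 and ITGA5 lay between 19.4 and 14.9 CPM per kb. LAMB1 was at 9.39, LAMC3 at 7.19, ITGA7 at 3.89 and LAMA3 at 3.64 CPM per kb. Under 2 CPM per kb were ITGB8 (1.29), LAMA2 (1.22), ITGA2B (1.15), LAMA4 (0.703), LAMA1 (0.502), ITGA10 (0.260), ITGB2 (0.2502), ITGA1 (0.209), ITGA9 (0.205) and ITGB7 (0.133). The subunits of the epithelial laminin receptors thus stood at the top of the order, and the leukocyte beta subunits ITGB2 and ITGB7 near its foot. Summed per kb, the beta subunits came to 204 to 279 and the alpha subunits to 149 to 208 CPM per kb, and within each library the beta sum was the larger.

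**Figure D1:**
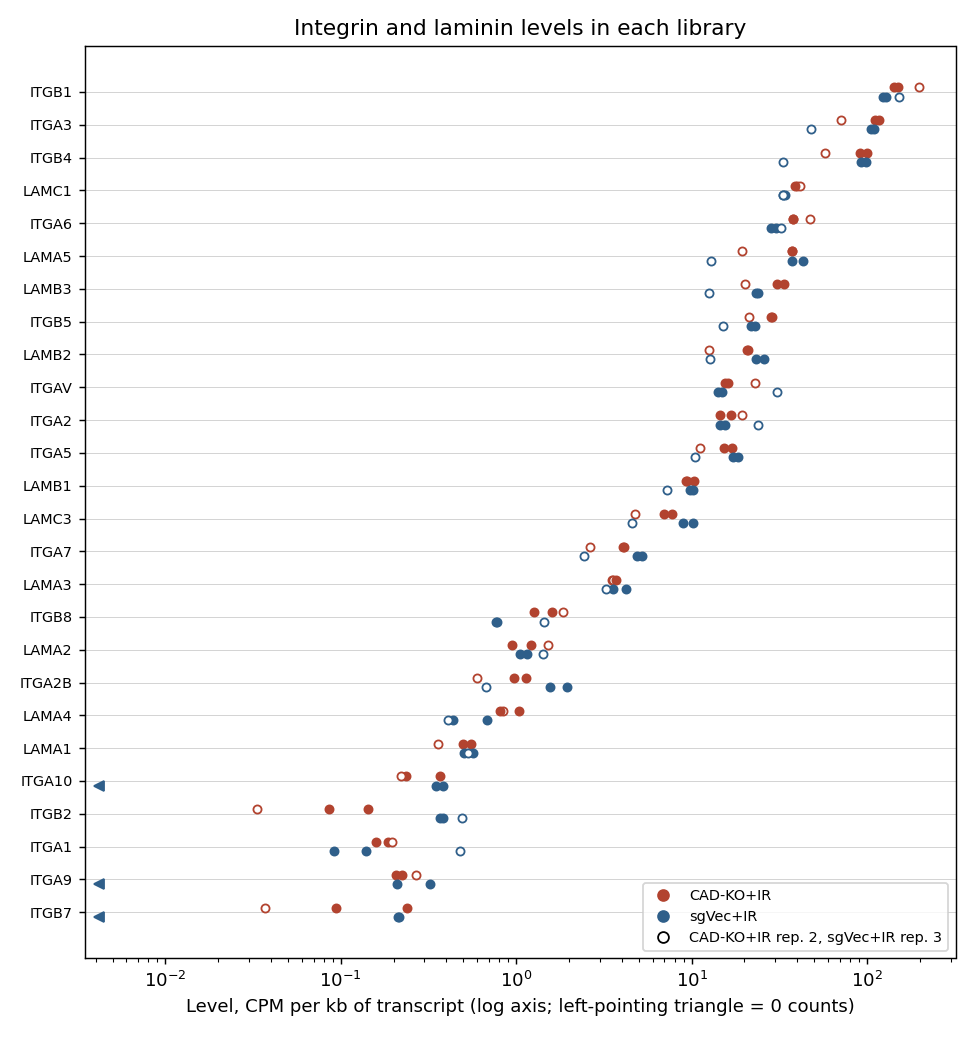
Levels of the tested genes named here in each library, in CPM per kb of transcript on a log axis, with genes in order of their mean. Each point is 1 library, open points are CAD-KO+IR replicate 2 and sgVec+IR replicate 3, and a triangle at the left edge marks 0 counts. ITGB1, ITGA3 and ITGB4 have the highest means, and for ITGA3 and ITGB4 the open points lie below the filled points of their group.

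Within each group, the library that stood apart differed from the others by gene, and the difference followed GC content. In CAD-KO+IR replicate 2, against the mean of replicates 1 and 3 on the log2(CPM + 0.5) scale, each of the 16 genes with at least 50% GC was lower (median −0.61), and 2 of the 11 genes under 50% GC were lower (median 0.30). In sgVec+IR replicate 3, against replicates 1 and 2, 15 of the 16 GC-rich genes were lower (median −0.97) and 4 of the 11 others (median 0.28). LAMA5, with the highest GC content, differed by −0.94 in CAD-KO+IR replicate 2 and by −1.63 in sgVec+IR replicate 3. ITGB4, at 63.7% GC, differed by −0.73 and −1.52. The AT-rich genes ITGAV and ITGB8 were higher in both of these libraries, ITGAV by 0.53 and 1.09 and ITGB8 by 0.38 and 0.86. ITGB2, at 59.1% GC, was the exception among GC-rich genes, at 0.28 in sgVec+IR replicate 3.
Across the 27 genes, this difference correlated with GC content with Pearson's r of −0.938 (Spearman's rho −0.943) in CAD-KO+IR replicate 2 and −0.731 (rho −0.785) in sgVec+IR replicate 3. Over 12883 genes with a GC value the same r was −0.810 and −0.706, so the pattern was not particular to integrins and laminins. The points are genes of the same libraries and not independent, and the values are a description. The cause was not tested. GC-rich genes such as ITGA3, ITGB4 and LAMA5 had a wide spread in both groups, while LAMC1, at 48.7% GC, had a narrow one.

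**Figure D2:**
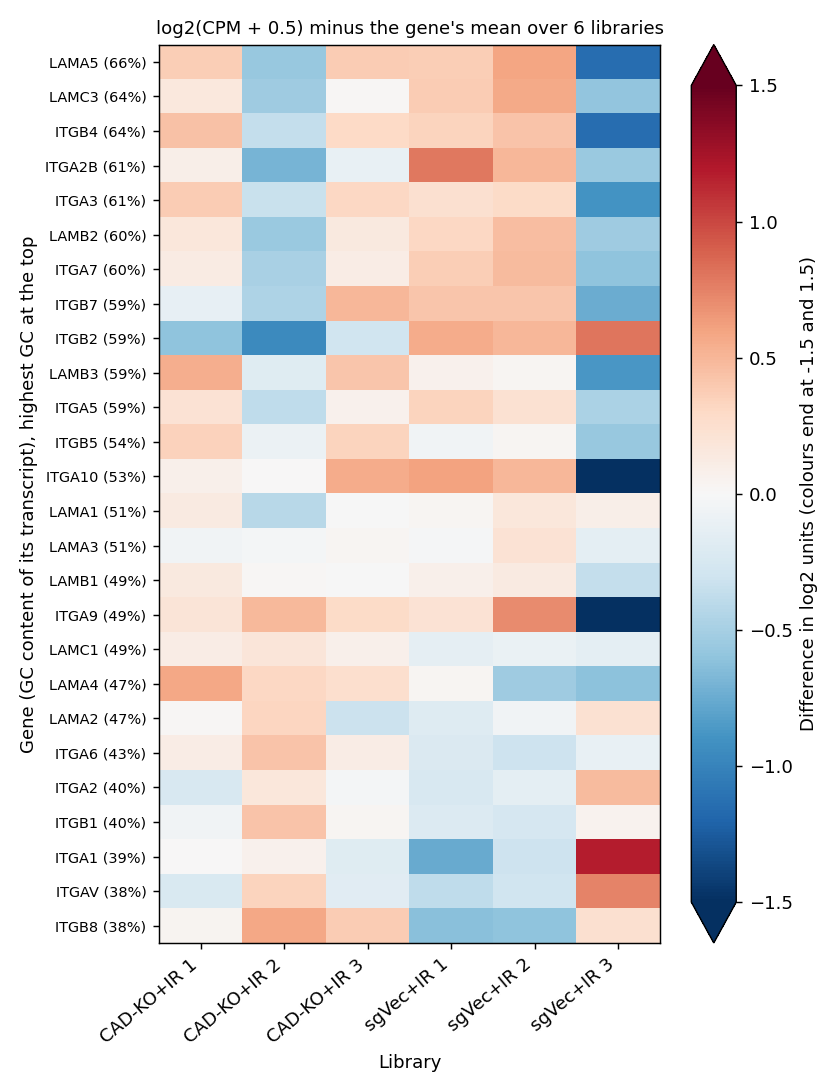
Each row is 1 of the tested genes named here, with its GC content in brackets and the highest GC at the top, and each column is 1 library. The colour gives log2(CPM + 0.5) minus the gene's mean over 6 libraries, and CAD-KO+IR replicate 2 and sgVec+IR replicate 3 are mostly blue in the upper rows and mostly red in the lower rows.

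**Figure D3:**
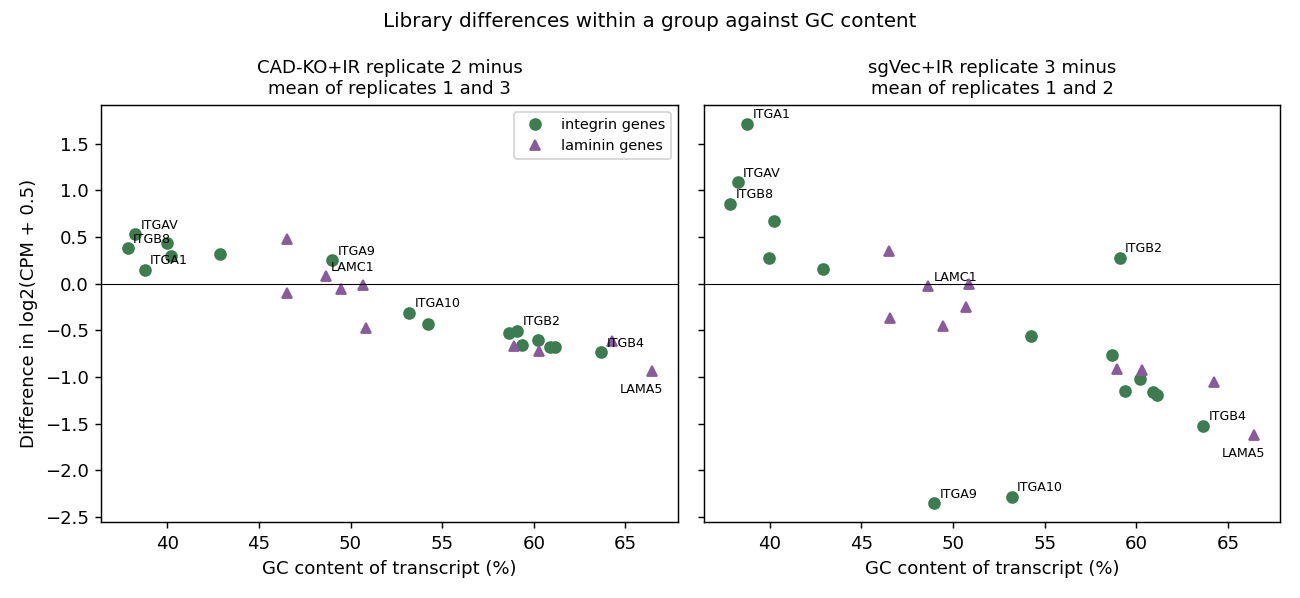
Difference of CAD-KO+IR replicate 2 (left) and sgVec+IR replicate 3 (right) from the mean of the other libraries of their group, in log2(CPM + 0.5), against transcript GC content in percent. Each point is 1 of the tested genes named here, circles for integrins and triangles for laminins, and the points fall from AT-rich to GC-rich genes, with ITGB2 above and ITGA9 and ITGA10 below the others on the right.

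The comparison of CAD-KO+IR with sgVec+IR asked whether integrin and laminin mRNA differed between irradiated cells without and with CAD. No integrin or laminin was a differentially expressed gene (DEG). A DEG had to reach 1.5-fold in either direction with an adjusted p under 0.05 in edgeR's quasi-likelihood test, and each of the 27 had an adjusted p of 0.9999. Over all 12925 genes tested, 4 were DEGs (0.0309%). Where the p was left unadjusted and 1.5-fold still required, LAMA4 was higher and ITGB2 lower, 2 of 27 against 2.18% of all genes, and without the fold change ITGA6 joined them, 3 of 27 against 2.85% of all genes. DESeq2 called 0 of 27 (0.364% of all genes), with 4 of 27 at an unadjusted p under 0.05 whatever the fold change (3.21% of all genes).
The median log2 fold change of the 27 was 0.03, with 15 higher and 12 lower, and that of all genes was −0.01. It came to −0.07 with sample weights (12 higher and 15 lower), −0.11 without sgVec+IR replicate 3 (12 higher and 16 lower) and 0.17 without sgVec+IR replicate 2 (20 higher and 8 lower), so its sign turned with the setting. In bulk RNA, fewer cells with a transcript and less of it per cell cannot be told apart. Values in all 3 CAD-KO+IR libraries lay above all 3 sgVec+IR libraries for 4 of 27, ITGA6, LAMA4 and LAMC1 among them, against 5.23% of all genes. They lay below for ITGB2, 1 of 27 against 5.01%.

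The spread set by the 2 divergent libraries was treated in further ways. An edgeR fit of the 6 libraries with a correction for GC content, added after seeing the data, called 0 of 27 (0.325% of all genes). There ITGB8, LAMA4, ITGA2B and ITGB2, the genes called in the next fit, had adjusted p of 0.192, 0.437, 0.477 and 0.332. A limma fit with voom and sample weights, which kept the 6 libraries but weighted sgVec+IR replicate 3 at 0.0404 and CAD-KO+IR replicate 2 at 0.154, called 4 of 27 (5.15% of all genes). ITGB8 and LAMA4 rose and ITGA2B and ITGB2 fell in that fit. Without both libraries, an alternative chosen after seeing the data, edgeR called the same 4 genes of 28 tested (3.37% of all genes), ITGB3 being the gene added. DESeq2 without both libraries called 1 of these 28, ITGB8 (1.96% of all genes). The weighted fit and the fits without both libraries rest mainly on the same 4 libraries and are not independent of each other. In the weighted fit these 4 did not count alike. CAD-KO+IR replicate 3 had a weight of 6.75 and replicate 1 of 1.79, so its knockout values lean mostly on replicate 3. The weights of sgVec+IR replicates 1 and 2 were 3.76 and 3.54. At an adjusted p under 0.05 whatever the fold change, the weighted fit called 12 of 27, against 22.3% of all genes. ITGB1, LAMC1, ITGA6, LAMB3, ITGB5, ITGB8 and LAMA4 rose and LAMB2, LAMC3, ITGA7, ITGA2B and ITGB2 fell. The share of members called in that fit was above the share of all genes, which was not tested as a difference. At 1.5-fold, a share above that of all genes was not particular to the members. There that fit called 14.8% of the members, 12.5% of the other adhesion genes described further on and 5.15% of all genes. For the other adhesion genes no share was taken whatever the fold change.

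**Figure D4:**
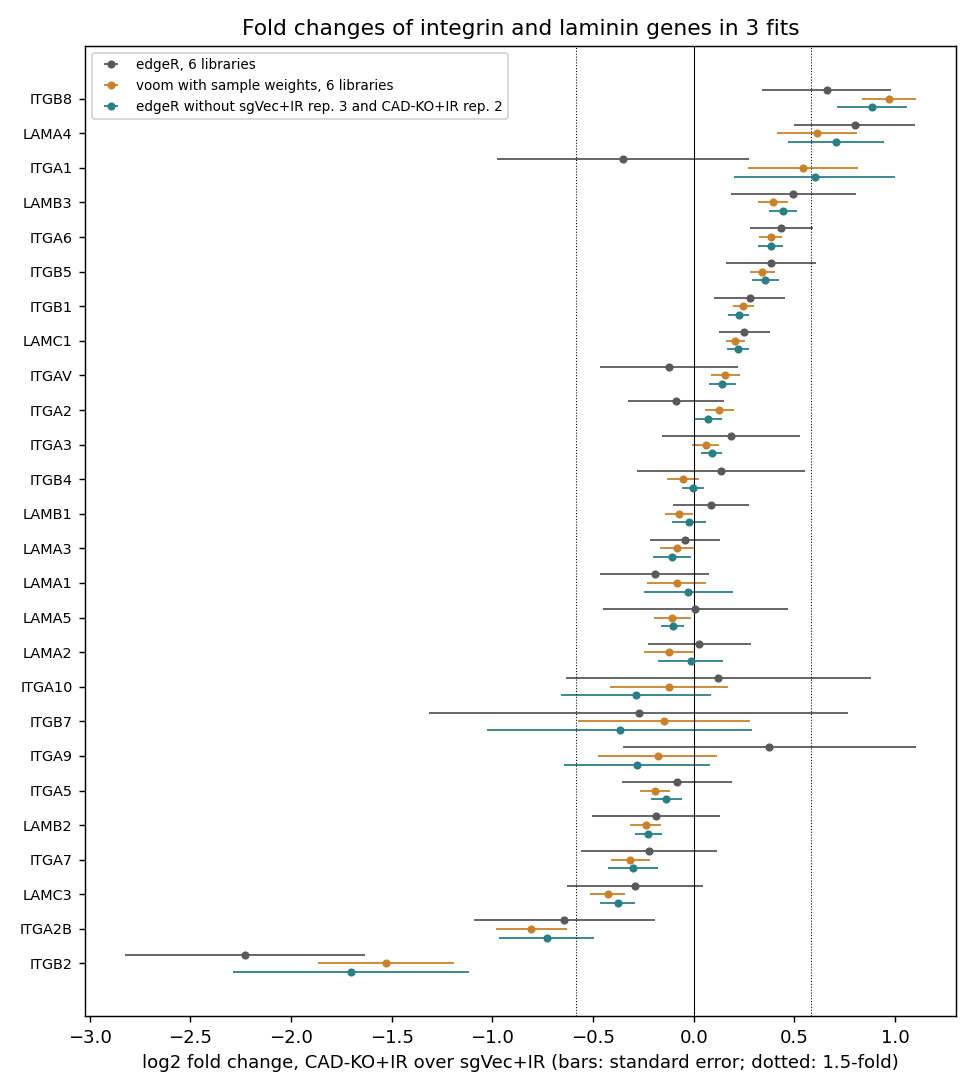
Log2 fold change of CAD-KO+IR over sgVec+IR for the tested genes named here, with standard errors as bars, in edgeR with 6 libraries (black), voom with sample weights (orange) and edgeR without CAD-KO+IR replicate 2 and sgVec+IR replicate 3 (teal). Dotted lines mark 1.5-fold, and ITGB8, LAMA4, ITGA2B and ITGB2 lie beyond them in each of the 3 fits. ITGA1, ITGA2, ITGA9, ITGA10, ITGAV, ITGB4, LAMA2, LAMA5 and LAMB1 change side of 0 between fits.

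Among the laminin-binding alpha subunits, ITGA6 stood at 213, 265 and 213 CPM in CAD-KO+IR replicates 1 to 3 and at 169, 159 and 183 CPM in sgVec+IR replicates 1 to 3. The groups did not overlap, and the lowest knockout library exceeded the highest control library. Its log2 fold change was 0.44 (SE 0.158, unadjusted p = 0.0284 and adjusted p = 0.9999 in edgeR), and 0.38 in the weighted fit (adjusted p = 0.00100), which is under 1.5-fold. ITGA6 lies on chromosome 2 of GRCh38 from 172427354 to 172506282, forward strand.
ITGA3, which shares laminin ligands with ITGA6, stood at 570, 346 and 543 CPM in CAD-KO+IR and at 515, 533 and 235 CPM in sgVec+IR. The groups overlapped, and the lowest value of each was in the library that stood apart. With 6 libraries its log2 fold change was 0.18 (SE 0.343). ITGA7, the laminin receptor subunit best known from muscle, was at 14.8 ± 3.44 against 17.2 ± 6.30 CPM (SD, n = 3 each). The log2 fold change of ITGA7 was −0.22 in edgeR and −0.31 in the weighted fit (adjusted p = 0.0370).

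The groups overlapped for each of the collagen-binding subunits. ITGA2 was at 133 ± 18.8 CPM in CAD-KO+IR and 142 ± 40.8 CPM in sgVec+IR (SD, n = 3 each), and its log2 fold change was −0.09. ITGA1 was at 1.94 ± 0.208 and 2.54 ± 2.27 CPM, with a log2 fold change of −0.35 (SE 0.625) that turned to 0.60 without the 2 divergent libraries. ITGA10 was at 1.45 ± 0.425 and 1.29 ± 1.12 CPM, with a log2 fold change of 0.12. In sgVec+IR replicate 3, ITGA1 was the most above its group (1.71 on the log2 scale), while ITGA9, ITGA10 and ITGB7 had no count there.

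ITGA5 and ITGAV encode subunits that recognise the tripeptide arginine, glycine and aspartate in fibronectin and vitronectin. ITGA5 was at 64.5 ± 13.4 and 68.3 ± 19.2 CPM (log2 fold change −0.08), and ITGAV at 128 ± 28.9 and 140 ± 66.2 CPM (log2 fold change −0.12, or 0.14 without the 2 divergent libraries). ITGA2B, the alpha subunit of the platelet fibrinogen receptor, was at 3.79, 2.003 and 3.25 CPM in CAD-KO+IR and 6.48, 5.20 and 2.26 CPM in sgVec+IR. It was chosen for per-library values after they were seen, as were ITGB8, LAMB3 and ITGB5. Both replicates 1 and 2 of sgVec+IR exceeded every knockout library, but replicate 3 did not. The log2 fold change of ITGA2B was −0.64 (SE 0.449, unadjusted p = 0.196 in edgeR), and −0.81 in the weighted fit (adjusted p = 0.00847). ITGA9, which binds tenascin and osteopontin, was at 1.83 ± 0.249 and 1.40 ± 1.29 CPM, with a log2 fold change of 0.38 that turned to −0.28 without the 2 divergent libraries.

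Of the beta subunits, ITGB1 stood at 539, 749 and 572 CPM in CAD-KO+IR and 486, 470 and 580 CPM in sgVec+IR. The groups overlapped in 1 control library, sgVec+IR replicate 3. The log2 fold change of ITGB1 was 0.28 (SE 0.176, unadjusted p = 0.158), and 0.25 in the weighted fit (adjusted p = 0.00733). ITGB4 stood at 592, 339 and 538 CPM in CAD-KO+IR and 550, 589 and 198 CPM in sgVec+IR, with a log2 fold change of 0.14 (SE 0.416) and of −0.01 without the 2 divergent libraries. The direction of ITGB4 thus turned with the choice of libraries.

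ITGB5 and ITGB8 encode partners of the ITGAV product, and the receptor with ITGB8 binds latent TGF-beta. ITGB8, on chromosome 7 from 20330702 to 20415754 (forward strand), stood at 11, 16.3 and 14.0 CPM in CAD-KO+IR and at 6.73, 6.85 and 12.7 CPM in sgVec+IR. The AT-rich ITGB8 was highest in the divergent library of each group, and sgVec+IR replicate 3 overlapped with the knockout libraries. Its log2 fold change was 0.66 (SE 0.319, unadjusted p = 0.0773 in edgeR), 0.97 in the weighted fit (adjusted p = 0.000752) and 0.88 in edgeR without both divergent libraries (adjusted p = 0.000191). Between those 2 libraries alone, ITGB8 was 0.35 higher in the knockout on the log2(CPM + 0.5) scale. ITGB8 was itself the middle value of the 11 integrin and laminin genes under 50% GC, of which 8 were higher. Their median is therefore no separate comparison for ITGB8. Over all genes under 50% GC the median was −0.12. The same difference was 0.92 for LAMA4, −0.14 for ITGA2B and −1.76 for ITGB2. ITGB5 was at 126, 92.5 and 124 CPM in CAD-KO+IR and at 95.2, 101 and 66.3 CPM in sgVec+IR, with a log2 fold change of 0.38 (SE 0.224, unadjusted p = 0.132), or 0.34 in the weighted fit (adjusted p = 0.00414).

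ITGB2, the beta subunit shared by the leukocyte integrins, gave the largest fold change of the 27 in edgeR. It was counted 5, 2 and 8 times in CAD-KO+IR and 20, 17 and 22 times in sgVec+IR, or 0.271, 0.105 and 0.456 CPM against 1.22, 1.16 and 1.55 CPM. Each knockout library lay below each control library, sgVec+IR replicate 3 included. The log2 fold change was −2.23 (SE 0.596, unadjusted p = 0.00508 and adjusted p = 0.9999 in edgeR), and −1.53 in the weighted fit (adjusted p = 0.00916). These are at most 22 counts in a library, and the annotated gene ITGB2-AS1 overlaps ITGB2 on the opposite strand. The strand setting of the counting is not given in the sources used here, so reads from any exon bases that ITGB2 and ITGB2-AS1 share cannot be told apart. Another annotated gene overlaps 23 of the 33 genes on the opposite strand, taken over whole gene spans with introns included. Whether exons overlap was not tested, for ITGB2 or for the others.
The alpha subunits that pair with ITGB2 lie outside the rule. ITGAM was counted 17, 24 and 23 times in CAD-KO+IR and 48, 74 and 29 times in sgVec+IR, with a log2 fold change of −1.52 (unadjusted p = 0.0141, and adjusted p = 0.00331 in the weighted fit). ITGAX was counted 31, 63 and 31 times and 90, 94 and 29 times. Its log2 fold change was −1.05 in edgeR (unadjusted p = 0.0753) and −1.72 in the weighted fit (adjusted p = 0.000187). ITGAL, also a leukocyte alpha subunit, went the other way, at 21, 9 and 22 counts and 13, 16 and 0 counts. The log2 fold change of ITGAL was 0.56 in edgeR (unadjusted p = 0.523). ITGAD was counted 9, 3 and 13 times and 22, 17 and 0 times, with a log2 fold change of −0.91 (unadjusted p = 0.367 in edgeR). For both ITGAL and ITGAD the groups overlapped. Among leukocyte markers, PTPRC, the pan-leukocyte marker CD45, was at 0 in 5 libraries and at 3 counts in CAD-KO+IR replicate 3, and CD3E was at 0 in all 6. The 5 leukocyte markers summed to 0.211 to 1.03 CPM in CAD-KO+IR and 0 to 1.16 CPM in sgVec+IR, ranges that overlap. ITGB7, the other leukocyte beta subunit, was at 0.353 ± 0.298 and 0.409 ± 0.354 CPM, with a log2 fold change of −0.27 (SE 1.04).

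**Figure D5:**
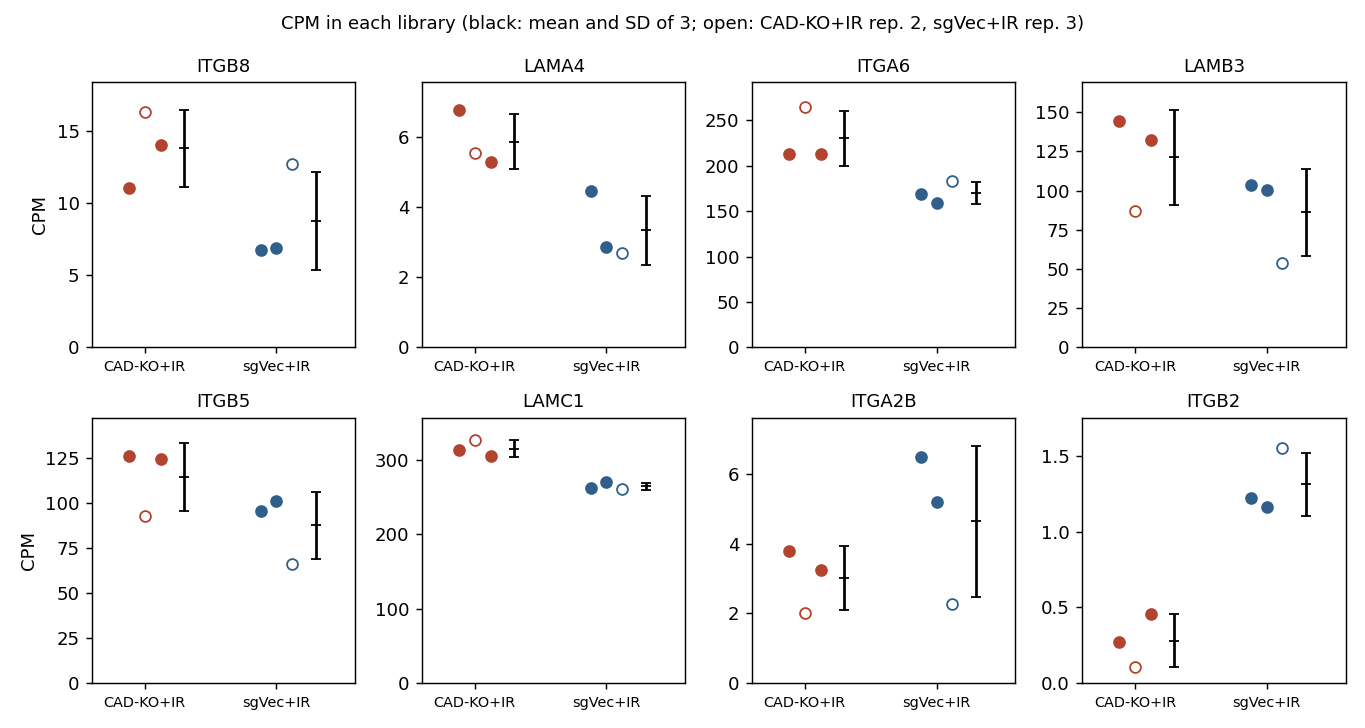
CPM in each library for 8 genes, with CAD-KO+IR in red and sgVec+IR in blue, each on its own linear axis from 0. Points are libraries, open points are CAD-KO+IR replicate 2 and sgVec+IR replicate 3, and black bars give the mean and SD of 3 libraries. The groups do not overlap for LAMA4, ITGA6, LAMC1 and ITGB2, and do overlap for ITGB8, LAMB3, ITGB5 and ITGA2B.

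Among the laminin alpha chains, LAMA4, a chain of endothelial and mesenchymal basement membranes, stood at 6.77, 5.54 and 5.30 CPM in CAD-KO+IR and at 4.46, 2.88 and 2.68 CPM in sgVec+IR. All knockout libraries lay above all control libraries. LAMA4 is on chromosome 6 from 112108760 to 112254939, reverse strand. Its log2 fold change was 0.80 (SE 0.302, unadjusted p = 0.0334 and adjusted p = 0.9999 in edgeR), and 0.61 in the weighted fit (adjusted p = 0.0452). The summed level of the 4 endothelial markers was lower in the knockout, at 1 to 2.22 CPM in CAD-KO+IR and 4.16 to 6.07 CPM in sgVec+IR. Only 1 of these 4 passed the filter on low counts, with a log2 fold change of −1.77 in edgeR.
LAMA5, the main alpha chain of mature epithelial basement membranes, was at 358 ± 118 and 356 ± 183 CPM (SD, n = 3 each), a log2 fold change of 0.01 (SE 0.459). LAMA3, an epithelial chain found in trimers with LAMB3, was at 38.2 ± 1.07 and 39.4 ± 5.29 CPM (log2 fold change −0.04). LAMA1, a chain of early embryonic basement membranes, was at 4.53 ± 0.943 and 5.17 ± 0.293 CPM (log2 fold change −0.19). LAMA2, the muscle chain, was at 11.9 ± 2.75 and 11.7 ± 1.85 CPM (log2 fold change 0.03).

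LAMB3 was the beta chain with the highest fold change. It stood at 145, 87.1 and 132 CPM in CAD-KO+IR and at 104, 101 and 53.9 CPM in sgVec+IR, where the divergent library of each group was the lowest. Its log2 fold change was 0.49 (SE 0.309, unadjusted p = 0.154), or 0.39 in the weighted fit (adjusted p = 0.00430). LAMB1 and LAMB2 are beta chains of the trimers with LAMC1. LAMB1 was at 55.8 ± 3.42 and 52.5 ± 9.13 CPM (log2 fold change 0.09), and LAMB2 at 103 ± 27.03 and 117 ± 38.9 CPM (log2 fold change −0.19, or −0.24 in the weighted fit with an adjusted p of 0.0436).

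Among the gamma chains, LAMC1 stood at 313, 327 and 305 CPM in CAD-KO+IR and at 263, 270 and 262 CPM in sgVec+IR, without overlap. Its log2 fold change was 0.25 (SE 0.126, unadjusted p = 0.0871), or 0.21 in the weighted fit (adjusted p = 0.0112), which is under 1.5-fold. LAMC3, a gamma chain found in few tissues, was at 39.7 ± 9.42 and 48.5 ± 18.2 CPM, with a log2 fold change of −0.29, or −0.43 in the weighted fit (adjusted p = 0.00683).

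The 6 genes below the filter on low counts were ITGA4, ITGA8, ITGA11, ITGB3, ITGB6 and LAMB4. In CAD-KO+IR and then sgVec+IR, ITGA11 was counted 9, 10 and 4 times and 7, 4 and 0 times. ITGB3, the other subunit of the platelet fibrinogen receptor, was counted 8, 11 and 11 times and 12, 8 and 0 times. ITGA4 had at most 4 counts in a library. ITGA8 had 3 counts in CAD-KO+IR replicate 1 and ITGB6, an epithelial partner of ITGAV, 1 count in CAD-KO+IR replicate 3, with 0 elsewhere. LAMB4 had no count in any library, which allows up to 0.0546 CPM in CAD-KO+IR and 0.0665 CPM in sgVec+IR (3 counts of the summed total of each group, for counting error only).

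The promoters of ITGB8, LAMA4 and ITGA2B are shown because these are among the 4 genes that passed the threshold in the weighted fit, ITGB2 being the other, a choice made after their values were seen. RefSeq promoters (GRCh38.p14, 250 bases before to 50 after the start) were given for 24 of the 33 genes, as 31 windows, since some genes have several starts. Capitals mark the GC box GGGCGG, which is on the opposite strand in the ITGB8 window. The TATA box TATAAA was also searched on both strands, as was the AP-1 site, written TGANTCA with any base at N. The cyclic AMP response element TGACGTCA was the last motif searched, likewise on both strands. The windows are ITGB8 (chr7:20330650-20330949, forward strand), LAMA4 (chr6:112254518-112254817, reverse strand) and ITGA2B (chr17:44389600-44389899, reverse strand).
ITGB8: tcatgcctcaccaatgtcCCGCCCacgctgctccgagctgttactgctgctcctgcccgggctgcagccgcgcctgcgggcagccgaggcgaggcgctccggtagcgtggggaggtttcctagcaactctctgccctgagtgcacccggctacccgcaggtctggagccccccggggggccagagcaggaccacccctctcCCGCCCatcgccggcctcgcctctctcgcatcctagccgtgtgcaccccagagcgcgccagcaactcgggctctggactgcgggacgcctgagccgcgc
LAMA4: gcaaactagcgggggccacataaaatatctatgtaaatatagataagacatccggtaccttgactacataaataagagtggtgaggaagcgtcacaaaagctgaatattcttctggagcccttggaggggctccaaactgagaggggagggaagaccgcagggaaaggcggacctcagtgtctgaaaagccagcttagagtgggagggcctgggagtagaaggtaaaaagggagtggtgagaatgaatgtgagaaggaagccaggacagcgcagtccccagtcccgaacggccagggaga
ITGA2B: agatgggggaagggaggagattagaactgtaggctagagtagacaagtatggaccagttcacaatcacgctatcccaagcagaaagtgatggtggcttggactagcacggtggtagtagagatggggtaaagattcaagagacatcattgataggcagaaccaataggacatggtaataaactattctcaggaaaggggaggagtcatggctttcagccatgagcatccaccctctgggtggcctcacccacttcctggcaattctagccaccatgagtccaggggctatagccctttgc
The ITGB8 window held 71.7% GC and 2 GC boxes, although the ITGB8 transcript had the lowest GC content of the 27 genes. The LAMA4 and ITGA2B windows held 51.3% and 49.7% GC and none of the 4 motifs in these letters. GGGCGG was found in 18 of 31 integrin and laminin windows (58.1%) and in 45.0% of all 35116 windows. The TATA box was in 2 of 31 (11.5% of all), the AP-1 site in 3 of 31 (7.7% of all), those of ITGA5, LAMA3 and LAMB3, and the cyclic AMP response element in 0 of 31 (1.8% of all).

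Other genes of adhesion to the matrix were read from 8 lists of partners, of which 80 genes were tested and 0 were DEGs in edgeR. With the p left unadjusted, 3 passed (2.18% of all genes), namely THBS1 higher and COL4A6 and ITGAM lower. DESeq2 called 1, THBS1 (0.364% of all genes). The weighted fit called 10 of 80 (5.15% of all genes), of which 3 rose and 7 fell. The lists share the libraries and the GC pattern described above.
Of 13 tested integrin ligands other than laminins, 12 were higher and 1 lower in edgeR, where 6214 of all genes were higher and 6711 lower. The median log2 fold change of these ligands was 0.14, or 0.08 without sgVec+IR replicate 3 and 0.02 without both divergent libraries. In the weighted fit THBS1, CCN1 and CCN2 rose. THBS1, the matrix protein thrombospondin, was counted 517, 482 and 437 times in CAD-KO+IR and 199, 184 and 208 times in sgVec+IR. All knockout libraries lay above all control libraries, with a log2 fold change of 0.99 (SE 0.187, unadjusted p = 0.00113 in edgeR and adjusted p = 0.000592 in DESeq2). The secreted integrin ligands CCN1 and CCN2 had log2 fold changes of 0.40 and 0.96 in edgeR (unadjusted p = 0.0875 and 0.106), and of 0.64 and 0.88 in the weighted fit (adjusted p = 0.000734 and 0.0317).
Of 13 tested basement membrane partners, 3 were higher and 10 lower (median −0.34, or −0.21 without both divergent libraries), and HSPG2 and NID1 fell in the weighted fit. HSPG2, which encodes perlecan, was counted 2251, 1403 and 1810 times in CAD-KO+IR and 2994, 3002 and 946 times in sgVec+IR, so the groups overlapped through sgVec+IR replicate 3. The log2 fold change of HSPG2 was −0.61 in edgeR (unadjusted p = 0.188) and −0.86 in the weighted fit (adjusted p = 0.000103). NID1, the nidogen that bridges laminin and collagen IV networks, had at most 24 counts in a library and log2 fold changes of −1.71 in edgeR (unadjusted p = 0.0501) and −2.54 in the weighted fit (adjusted p = 0.00201). The collagen IV chain gene COL4A6 was at 15.5 ± 2.09 against 24.8 ± 2.98 CPM, with a log2 fold change of −0.68.
Of 18 tail adaptors tested, 11 were higher and 7 lower, and TNS2 and FBLIM1 fell in the weighted fit, by 0.69 and 1.33 on the log2 scale (adjusted p = 0.00189 and 0.00132), with log2 fold changes of −0.48 and −1.13 in edgeR (unadjusted p = 0.251 and 0.147). Of 17 focal adhesion kinases and scaffolds, 11 were higher and 6 lower, and of 5 hemidesmosome partners 3 and 2, with 0 called in either list in edgeR, DESeq2 or the weighted fit. Of 5 non-integrin laminin receptors 1 was higher and 4 lower, with 0 called. Of 4 tetraspanins 1 was higher and 3 lower, and CD82 fell by 0.86 on the log2 scale in the weighted fit (adjusted p = 0.000986), with −0.66 in edgeR (unadjusted p = 0.274). Of 5 leukocyte alpha subunits 1 was higher and 4 lower, and ITGAM and ITGAX fell in that fit.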

How the data were processed

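RNA was extracted with Trizol and mRNA libraries were sequenced by the authors, who cleaned reads with fastp and counted them with featureCounts. The deposited values are raw counts per gene for 6 libraries. The submitters' processing notes name the mouse build mm10, whereas the identifiers are human Ensembl genes. The aligner, annotation and strand setting are not given in the sources used here, and the labels list the molecule as genomic DNA.

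Genes were kept by filterByExpr (minimum count 10, total 15), leaving 12925 of 20020. Groups were compared with edgeR 4.0.16 (R 4.3.3; TMM, quasi-likelihood test, legacy FALSE) with Benjamini-Hochberg adjustment over all genes tested. SE is the log2 fold change divided by the square root of F. DESeq2 1.42.0 and limma 3.58.1 (voom, with or without sample weights), other scalings and filters, the replicate block and leaving out each library were alternatives. The removal of 2 libraries together and a GC correction (lowess, span 0.3) were added after seeing the data. CPM use TMM-adjusted totals. Length, GC content and positions came from the longest coding transcript in GENCODE 29 (GRCh38), linked by gene identity, and 19823 of 20020 identifiers matched. Scripts were tested on simulated data.

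Members and lists were chosen with earlier results of these data known. Each tested member was named with levels and fold change, except 1 that is not reported here, though counts and correlations over the members include it. Per-library values were given for those with an unadjusted p under 0.05 in edgeR or an adjusted p under 0.05 in DESeq2, with groups that did not overlap, or among the 3 highest per kb. Partner genes were named where they passed the DEG rule in edgeR, DESeq2 or the weighted fit, with at most 5 a list. COL4A6, ITGAL and ITGAD were named after their values were seen. Same-numbered replicates were checked for pairing, which the check could not decide, and the main fit used no pairing. Counting limits cover counting error only, since reads carried no molecular identifiers.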

Additional observations from a re-analysis of the deposited data

How the results depend on the processing

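The number of integrin and laminin DEGs was 0 in edgeR and in the alternatives other than those with weighted or removed libraries. It was 4 with voom and sample weights, 4 without CAD-KO+IR replicate 2 and sgVec+IR replicate 3 together, and 1 in DESeq2 without that pair. At an unadjusted p the count was 2 in edgeR (2.18% of all genes), 4 with weights (6.85%), 4 without the pair (5.12%, or 3.51% in DESeq2), 3 with the GC correction (2.96%), 1 with the replicate block (ITGB2; 1.11%), and 1 to 4 when single libraries were left out, with 4 without sgVec+IR replicate 3 (6.48%). Over all genes, 4 DEGs became 47 in DESeq2, 0 in limma-voom without weights, 666 with weights, 0 with the replicate block, 42 with the GC correction, 440 without the pair, 256 in DESeq2 without the pair, and 0 to 22 without single libraries (22 without sgVec+IR replicate 3). Partner DEGs went from 0 to 1 in DESeq2, 10 with weights, 1 with the GC correction, 10 without the pair and 8 in DESeq2 without the pair. Replicate numbers are not stated to pair the libraries, and the check made here cannot decide it. Deviations were taken from the group mean, so the divergent library of each group sets the signs. The correlations of same-numbered deviations were 0.468, −0.545 and −0.379, and CAD-KO+IR replicate 2 went with sgVec+IR replicate 3 (0.552). Of the 6 libraries, 1 correlated best with its own number.

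The direction held in every alternative for 13 of 27 genes, and 14 reversed at least once. Size still moved when single libraries were left out, from −0.02 to −0.49 for ITGA7, −0.06 to −0.57 for LAMC3, −0.03 to −0.31 for LAMA1, −0.31 to −0.96 for ITGA2B, 0.12 to 0.38 for ITGB1, 0.25 to 0.69 for LAMB3, 0.22 to 0.52 for ITGB5 and 0.50 to 1.02 for ITGB8. The log2 fold change reversed with weights, without the pair, and in DESeq2 without the pair for ITGA1 (0.54, 0.60 and 0.59), ITGA2 (0.13, 0.07 and 0.07), ITGA10 (−0.12, −0.29 and −0.28), ITGAV (0.16, 0.14 and 0.14), ITGA9 (−0.18, −0.28 and −0.29), ITGB4 (−0.05, −0.01 and −0.01), LAMA2 (−0.12, −0.01 and −0.02), LAMA5 (−0.11, −0.10 and −0.10) and LAMB1 (−0.07, −0.02 and −0.02). In limma-voom ITGA1 reversed to 0.03 and ITGB7 to 0.25, and with library size alone LAMA2 came to 0.00 and LAMA5 to −0.01. Leaving out single libraries gave −0.76 to 0.66 for ITGA1, −0.22 to 0.17 for ITGA2, −0.11 to 0.38 for ITGA3, −0.30 to 0.08 for ITGA5, −0.17 to 1.07 for ITGA9, −0.43 to 0.62 for ITGA10 and −0.33 to 0.34 for ITGAV. It gave −0.22 to 0.40 for ITGB4, −1.13 to 0.17 for ITGB7, −0.15 to 0.19 for LAMA2, −0.12 to 0.07 for LAMA3, −0.36 to 0.33 for LAMA5, −0.05 to 0.18 for LAMB1 and −0.43 to 0.02 for LAMB2. The cause was not tested. ITGB2 rests on few counts.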
